A study of Mus musculus with 4 samples.

Results

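Some of the sites where Runx2 was found were not single narrow peaks but stretches of several kilobases. The 3 peak lists, made as the cells passed through osteoblast differentiation (days 0, 9 and 28), were merged wherever they shared at least 1 bp, which gave 67703 merged regions with a median width of 702 bp. Those that spanned 3000 bp or more from start to end, here called wide domains, numbered 481, or 0.71% of the regions, and held 3.39% of the merged sequence. Members were thus chosen by measured peak widths, so their widths, and anything else taken from the same peak calls, are given as a description without a test. The median wide domain was 3541 bp, 339 of 481 were under 4000 bp, 62 were over 5000 bp, and the widest was 20303 bp. At the threshold itself, the 2 narrowest members were a 3000 bp region in an intron of Prex1 and a 3001 bp region at the start site of Cdk9, and the 2 widest regions left out measured 2996 bp in Kank1 and 2995 bp at Nr2f6. The widths showed no gap there, with 89 regions in the 100 bp below the limit and 59 in the 100 bp from it upwards.

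Chromatin was taken from MC3T3-E1 Subclone 4, a single clonal preosteoblast line of C57BL/6 calvaria, and was immunoprecipitated with the Runx2 antibody M70. Day 0 cells were proliferating, day 9 cells were depositing matrix, and day 28 cells were mineralizing. Differentiation was induced with ascorbic acid and beta-glycerophosphate, and the input DNA that served as control for all 3 stages came from day 9 cells alone. The authors pooled the 2 replicate libraries of each stage before calling peaks, so each stage is a single list (25457, 60596 and 40330 peaks in the order of the days). Differences between stages could not be set against replicate spread, and none was tested. The peak lists hold no read counts, so the depth behind a single peak is unknown. The study's own tally lists far more raw reads for day 0 than for either later stage, so that stage and depth cannot be told apart in any comparison of widths between days. All intervals below are exact binomial (Clopper-Pearson) 95% intervals that cover counting error only.

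Runx2 is the Runt-family transcription factor without which osteoblasts do not form. With its partner Cbfb it binds the core sequence TGTGGT, read as ACCACA on the other strand, and it activates or represses genes depending on the co-factors it meets. In chromatin immunoprecipitation, a factor at a single site gives a peak a few fragments wide, whereas clusters of sites, open promoter chromatin or tandemly repeated DNA can all give broader stretches of called signal.

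The sequences below show how differently the wide domains were built. Each is a stretch of 120 bases of mm9 (NCBIM37), plus strand, 5′ to 3′, taken outside protein-coding exons where the domain held the most matches, with the matches in capitals. The first 4 come from domains on Neat1, Col1a1, Adamts4 and Runx2 and show 1 or 2 copies of TGTGGT or ACCACA. The fifth is from the single-copy domain with the densest matches, 22 in all, some of them in a short run of 5-base units. The sixth and seventh come from tandem repeats in which the core recurs with the repeat unit, and the last, from just upstream of Midn, shows GGGCGG or CCGCCC in a 6383 bp domain that held no TGTGGT at all.
Neat1, non-coding exon, chr19:5839371-5839490: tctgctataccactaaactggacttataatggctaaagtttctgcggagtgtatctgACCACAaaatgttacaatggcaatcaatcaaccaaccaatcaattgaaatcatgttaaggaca
Col1a1, intron, chr11:94806511-94806630: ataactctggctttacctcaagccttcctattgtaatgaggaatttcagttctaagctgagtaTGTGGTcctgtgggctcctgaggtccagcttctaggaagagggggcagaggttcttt
Adamts4, intron, chr1:173183001-173183120: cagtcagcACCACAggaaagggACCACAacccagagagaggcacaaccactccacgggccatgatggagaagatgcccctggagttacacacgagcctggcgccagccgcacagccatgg
Runx2, intron, chr17:44870483-44870602: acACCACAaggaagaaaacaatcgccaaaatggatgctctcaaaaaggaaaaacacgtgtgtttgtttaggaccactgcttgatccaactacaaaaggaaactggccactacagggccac
Irf2bp2 neighbourhood, chr8:129049400-129049519: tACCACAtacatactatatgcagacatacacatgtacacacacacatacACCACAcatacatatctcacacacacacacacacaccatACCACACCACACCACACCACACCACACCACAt
21-base repeat, chromosome 17, chr17:3009262-3009381: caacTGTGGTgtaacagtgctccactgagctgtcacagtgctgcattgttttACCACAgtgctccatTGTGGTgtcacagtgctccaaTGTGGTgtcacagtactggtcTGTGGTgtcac
25-base repeat in Rsph3b, chr17:7136271-7136390: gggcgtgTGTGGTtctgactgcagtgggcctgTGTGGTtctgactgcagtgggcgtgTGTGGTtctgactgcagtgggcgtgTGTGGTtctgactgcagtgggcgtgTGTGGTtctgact
Midn, promoter, chr10:79610894-79611013: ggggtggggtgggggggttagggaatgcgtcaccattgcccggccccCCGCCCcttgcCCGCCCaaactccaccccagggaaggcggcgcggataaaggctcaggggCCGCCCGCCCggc

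Wide domains were of 2 kinds, which differed in sequence, in the genes beside them and in the stages at which they were called. In 91 of 481 (18.9%, interval 15.5 to 22.7), 1 of 2 criteria was met. At least 50% of the 32-base words occurred more than once in the genome, copies inside the domain included, or at least 20% of the 12-base words occurred again within the domain. These are called repeated domains. The remaining 390 are called single-copy domains, and their median share of 32-base words found more than once was 0.60%, against 87.2% for the repeated ones. By the first criterion alone 77 wide domains qualified (16.0%, interval 12.8 to 19.6), where the share over all merged regions was 5.23%. The limits were set after the sequences had been seen. The highest single-copy values were 34.7% of 32-base words found more than once in the genome and 19.3% of 12-base words repeated inside.

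The single-copy domains were nearly all occupied at every stage. A peak was present at all 3 days in 363 of 390 (93.1%, interval 90.1 to 95.4), compared with 17 of 91 repeated domains (18.7%, interval 11.3 to 28.2). Over all members the share was 79.0%, and over all merged regions it was 27.4%. Over regions of 2000 bp to just under 3000 bp it was 84.6% (interval 83.0 to 86.2), repeated sequence included. With regions that met the first criterion left out, it was 86.3% in the class from 2000 bp and 89.4% in that from 2500 bp. The second criterion was applied to wide domains alone. A region joined from several lists is wider, so the rule itself favours a peak at every stage. Among the repeated domains, 50 of 91 (54.9%, interval 44.2 to 65.4) were called at day 9 only, against 34.5% of all merged regions. Another 24 (26.4%, interval 17.7 to 36.7) were called at days 9 and 28, near the 21.1% of all merged regions. No wide domain was called at day 28 only, and neither was any region of 2000 bp to just under 3000 bp, against 7.59% of all merged regions.

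A single peak of 3000 bp or more lay within 348 of the 481 wide domains (72.3%, interval 68.1 to 76.3), and the other members reached 3000 bp only through the joining of narrower peaks. Only 9 single-copy domains held such a peak at each of the 3 days. They included those on Neat1, the body of Col1a1, Plec, Midn and Trim8, an E3 ubiquitin ligase. Another was a 6308 bp stretch on chromosome 17 covering the annotated pseudogene AY036118, which was named after its values were seen. Of the 32-base words of that stretch, 17.4% occurred more than once in the assembly, against a median of 0.60% in single-copy domains. Copies absent from the assembly were not counted. At day 0 the widest single peak was 12480 bp, at Neat1. At day 9 it was 16182 bp, in a 19-base tandem repeat on chromosome X. At day 28 a peak of 20303 bp in the repeat array next to Ezh2 was the widest.

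**Figure D1:**
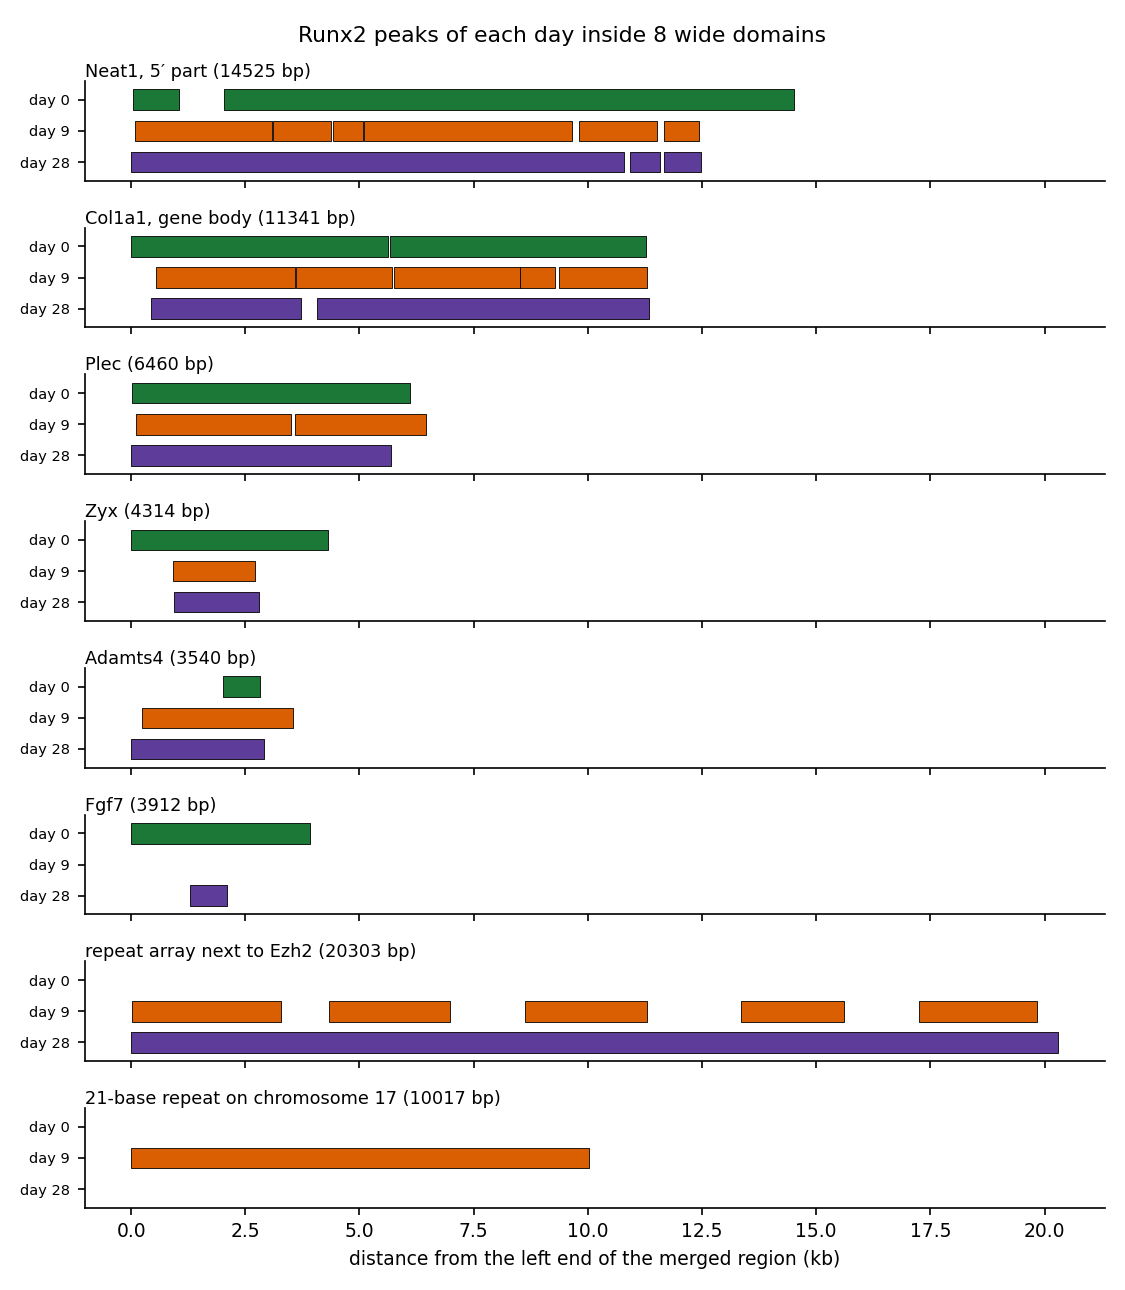
Peaks of each day inside 8 wide domains, with the distance from the left end of the merged region in kb on the x axis and 1 row per day; each bar is 1 called peak. The body of Col1a1 was covered almost end to end at all 3 days, Neat1 was covered to its right end at day 0 alone, Zyx and Fgf7 were widest at day 0, Adamts4 was widest at days 9 and 28, and the 2 repeated domains had no peak at day 0.

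Within single-copy domains occupied at all 3 days, each stage covered most of the width. The median was 3122 bp at day 0, 2692 bp at day 9 and 2989 bp at day 28. Day 0 covered the most bp in 196 of 363 (54.0%, interval 48.7 to 59.2), day 28 in 124 (34.2%) and day 9 in 43 (11.8%). Over all regions with a peak at all 3 days, day 0 covered the most in 53.9%, so the order of the stages was that of the lists as a whole. At day 9 the same stretch was more often broken up, with 2 or more peaks in 267 of 363 domains (73.6%), against 129 (35.5%) at day 0 and 153 (42.1%) at day 28. The lists as a whole had the same order, with 11.8% of all regions occupied at every stage holding 2 or more day 9 peaks, 2.74% holding as many day 0 peaks and 3.86% day 28 peaks. The widest single peak came from day 9 in 73 of 91 repeated domains and from day 0 in 1, whereas in single-copy domains it came from day 0 in 200 of 390 and from day 9 in 40.

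**Figure D2:**
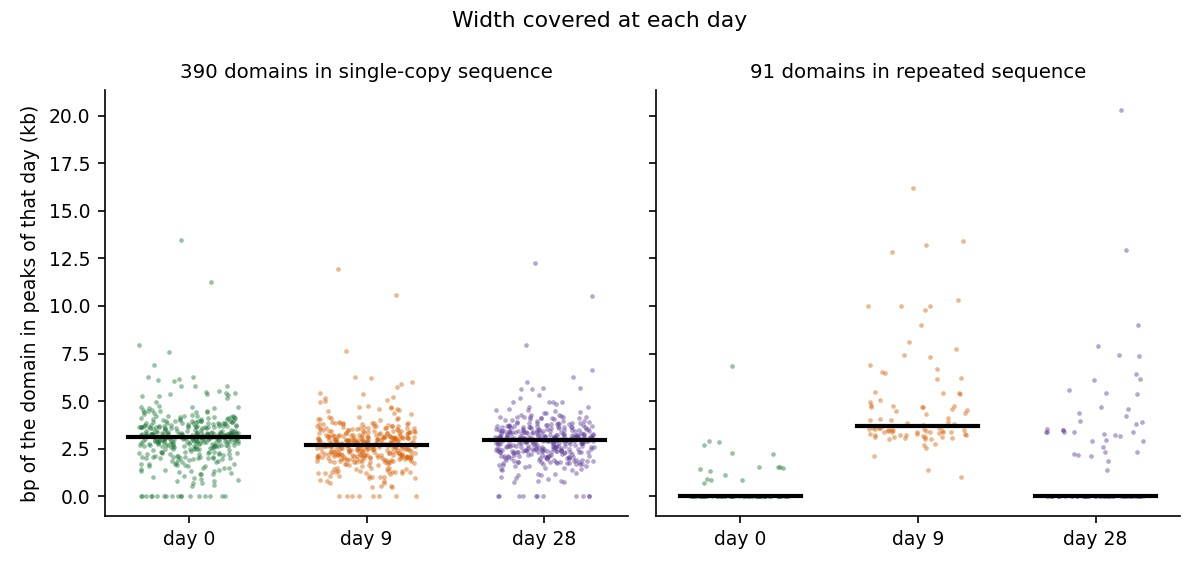
Bases of each wide domain that lay in peaks of each day, in kb, for 390 domains in single-copy sequence (left) and 91 in repeated sequence (right); each point is 1 domain and the bar is the median. The single-copy medians lie close together at the 3 days, whereas most repeated domains sit at 0 at days 0 and 28.

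The stages overlapped in a shared core with a fringe that belonged mostly to day 0. In the 363 single-copy domains, 57.7% of the merged sequence was covered at all 3 days, 22.1% at 2 days and 20.3% at 1 day. Of the sequence covered at 1 day, 69.1% was covered at day 0, 21.3% at day 28 and 9.66% at day 9. TGTGGT occurred 0.86 times per kb in the shared core, 0.71 times where 2 stages overlapped and 0.63 times in the fringe. The GC content fell alongside, from 59.2% in the core to 55.0% and 50.7%, and the part of base composition in the motif gradient was not tested. Day 0 was also the most deeply sequenced stage, and the part of depth in its fringe was not tested.

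Single-copy wide domains were located much like the regions just below them in width. The centre was intronic in 191 of 390 (49.0%), exonic in 72 (18.5%), in a promoter in 42 (10.8%), upstream within 20 kb in 21 (5.38%), intergenic in 63 (16.2%) and in the region of a transcription termination site in 1, near Eif6. Over regions of 2000 bp to just under 3000 bp the shares were 42.6% intronic, 22.8% exonic, 12.6% promoter, 6.30% upstream and 15% intergenic. Over all merged regions they were 42.9%, 13.6%, 4.09%, 10.6% and 27.8%. Both of these sets include repeated sequence. A protein-coding start site lay inside 213 of 390 (54.6%, interval 49.5 to 59.6), of which 26 held start sites of 2 or more genes. Over all 481 wide domains the share was 45.7% (interval 41.2 to 50.3), where 16.2% of all merged regions overlapped a start site. A wide stretch meets a start site more easily, and the stricter measure, a centre within 1000 bp of one, gave 46.2% of single-copy domains (interval 41.1 to 51.2) against 49.8% (interval 47.6 to 52.0) of the regions of 2000 bp to just under 3000 bp, so the share did not rise further beyond 3000 bp. Where exactly 1 start position lay inside a domain (80 domains), the domain reached a median of 2395 bp into the transcribed side and 1254 bp upstream, and the transcribed side was the longer in 54 of 80 (67.5%, interval 56.1 to 77.6).

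The other 177 single-copy domains held no start site. Of these, 93 had their centre inside a gene body and 84 lay outside. They differed from the start-site domains in base composition, with a median GC content of 53.1% against 58.7% and a median observed-to-expected CpG ratio of 0.22 against 0.57. A CpG-rich sequence, taken as a GC content of at least 50% and a ratio of at least 0.6, was seen in 92 of 213 start-site domains (43.2%, interval 36.4 to 50.1) and in 5 of 177 others (2.82%, interval 0.92 to 6.47). Start-site regions under 3000 bp were CpG-rich more often, in 73.2% (interval 72.3 to 74.0). Here and below, unless stated, narrower regions are without those that met the first criterion. The second criterion was applied to wide domains alone. GC content and CpG ratio were taken over whole regions, of median width 3465 bp for start-site domains and 1194 bp for narrower start-site regions. The part of width in this difference was not tested. Day 0 covered the most bp in 67.3% of the domains without a start site that were occupied at all 3 days and in 44.3% of those with one, and regions under 3000 bp split in the same way, at 62.2% and 43.8%.

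**Figure D3:**
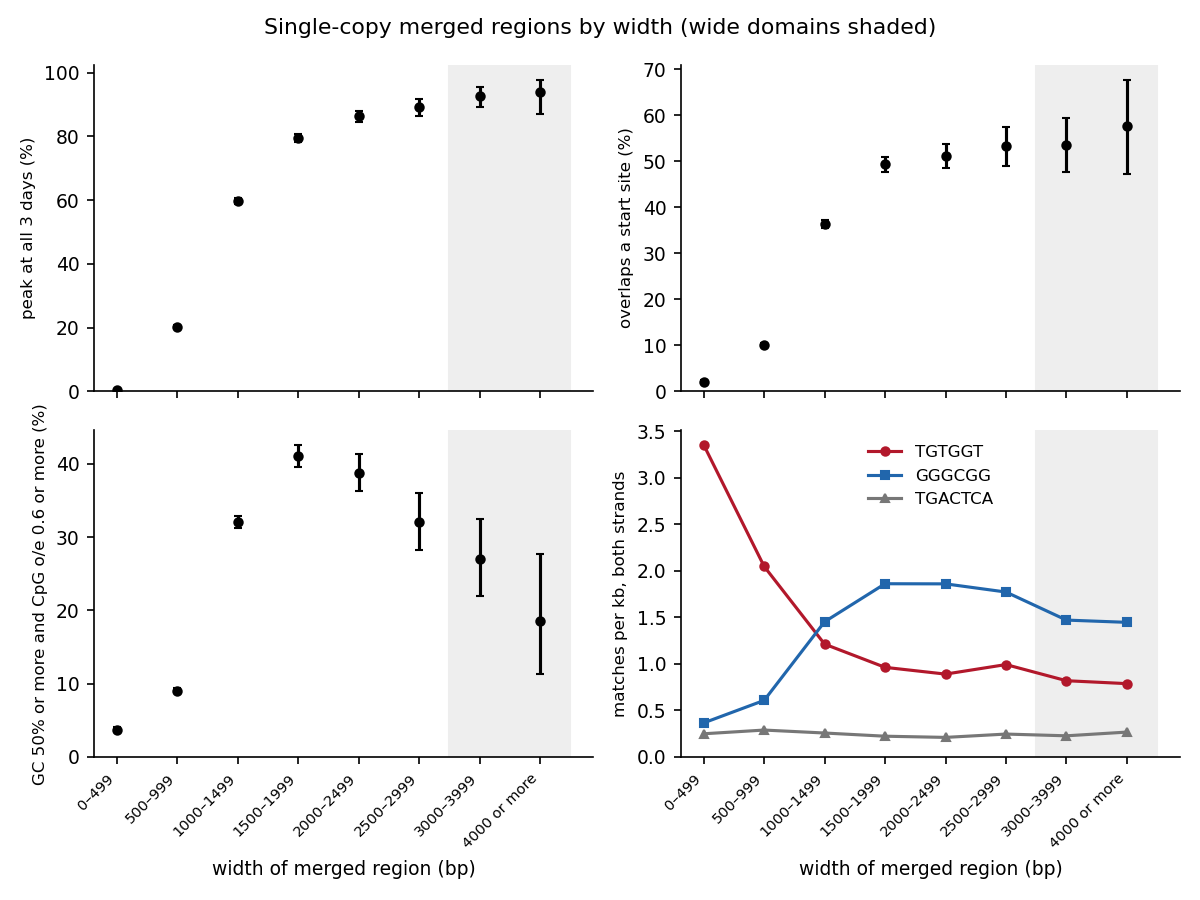
Merged regions in 8 classes of width in bp, with single-copy wide domains shaded: share with a peak at all 3 days, share overlapping a protein-coding start site, share that were CpG-rich (points with 95% intervals), and matches per kb of 3 motifs (the Runx core, the GC box and the AP-1 site). Narrower regions are without those that met the first criterion for repeated sequence, and the second was not applied to them. The share with a peak at all 3 days rises through every class, from 79.6% in the class from 1500 bp to 93.8% in the widest. The share overlapping a start site rises more slowly from that class on, from 49.3% to 57.7%. CpG-rich sequence is most frequent in the class from 1500 bp, and TGTGGT falls from 3.35 per kb in the narrowest class to 0.79 in the widest.

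Few copies of the Runx core were spread over the single-copy domains. A median of 3 TGTGGT matches was found per domain, counted on both strands, and 350 of 390 (89.7%, interval 86.3 to 92.6) held at least 1. So did 63.8% of all 67222 narrower regions, which are shorter and include repeated sequence. Their density was 0.81 per kb, close to the 0.77 per kb of the whole of chromosomes 1 to 19 and X, while regions under 500 bp held 3.35 per kb and those in the class from 1000 to just under 1500 bp held 1.21. Domains without a start site had 1.06 per kb and those with one 0.60 per kb. The corresponding densities for narrower regions were 2.15 and 0.55, so a lower density in wide domains was seen away from start sites. Short tandem repeats of the kind the second criterion takes out were not removed from the narrower regions. Their part in this difference was not tested. GGGCGG, the GC-box core bound by Sp factors, occurred 2.22 times per kb in start-site domains and 0.55 times in the others, and TGACTCA, the AP-1 site, occurred 0.20 and 0.29 times. The 40 single-copy domains with no TGTGGT included the one at Midn, which was named after its values were seen.

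Peak scores, which the authors' peak caller gives as 10 times the negative log10 of a p-value and which tie at about 3100, were high in most single-copy domains. A score of 3100 or more was reached on at least 1 day in 199 of 390 (51%, interval 45.9 to 56.1), against 4.58% of all merged regions. Scores enter the same calls as widths and are given as a description. In the domains occupied at all 3 days, the highest peak had a median rank at percentile 88.9, 94.9 and 93.5 of the lists for days 0, 9 and 28, and the lowest member ranked at 2.62, 26.9 and 0.86. The medians were 79.7, 91.3 and 89.3 over regions of 2000 bp to just under 3000 bp occupied at all 3 days, repeated sequence included.

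The widest single-copy domain lay on the 5′ part of Neat1, the long non-coding RNA around which nuclear paraspeckles form. It spanned chr19:5838159-5852683 (14525 bp) and reached 7205 bp upstream and 7319 bp downstream of the annotated 5′ end, so that it covered 35.2% of the gene. Peaks covered 13474 bp of it at day 0, 11948 bp at day 9 and 12267 bp at day 28, and its highest-scoring peak reached 3100 on each day. The day 0 signal was called as 2 peaks and the day 9 signal as 6. It held 11 TGTGGT matches, or 0.76 per kb.

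Col1a1, which encodes the main chain of bone collagen, followed at chr11:94801724-94813064 (11341 bp). This domain lay wholly within the gene, and peaks covered 11239 bp of it at day 0, 10585 bp at day 9 and 10536 bp at day 28. Its highest score was 600.3 at day 0 and 3100 at days 9 and 28. A second, 3021 bp domain covered the Col1a1 start site (chr11:94797008-94800028), with 1757 bp in peaks at day 0, 2740 bp at day 9 and 2989 bp at day 28. Together they covered 82.2% of the gene body. They held 7 and 0 matches to TGTGGT. The larger one also overlapped Gm17329, a gene model on the opposite strand.

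The next widest single-copy domains were 8084 bp from the end of Midn to the start of Cirbp, a cold-inducible RNA-binding protein gene, and 7655 bp at Kazald1, whose product is a secreted relative of the insulin-like growth factor binding proteins. An intergenic domain of 6883 bp on chromosome 6, with Polr1a the nearest gene, was covered over its full width at day 0 by 1 peak, over 3686 bp at day 9 and over 3621 bp at day 28. The Cirbp domain reached 7683 bp upstream of its start site and only 400 bp into the gene, and was covered over 7944 bp, 7643 bp and 7962 bp at the 3 days in turn. Peaks at Kazald1 covered 7572 bp at day 0, 4934 bp at day 9 and 6657 bp at day 28.

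Plec, which encodes the cytoskeletal linker plectin, carried 3 wide domains (6672, 6460 and 4092 bp). The first 2 held alternative start sites inside the gene and were occupied at every stage, while the 4092 bp domain lay over exons, had no day 0 peak, and was covered over 4046 bp at day 9 and 1033 bp at day 28. In all, 30 genes had 2 or more single-copy domains in their body. Other genes with 3 were Prrx2, Dnm1, Nfix and the overlapping Coro7, Dnaja3 and Vasn. The gene model Gm20388, which spans over 4 Mb of chromosome 8, had 9 and was set aside as a locus.

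Genes were then taken by function from 13 lists, and a gene was counted when a single-copy wide domain overlapped its body or the 10 kb on either side. This was the case for 485 of 22380 protein-coding genes (2.17%). A merged region of any width was present for 74.4% of all protein-coding genes, so the 2.17% includes genes without one. In the lists that share ran from 60% for genes of other lineages to 100%. The lists and the rule were chosen with earlier results of these data known, long genes meet a domain more easily, and genes close together share domains, so the counts are set beside the 2.17% without a test.

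Osteoblast transcription factors were the list with the highest share, 8 of 34 genes (23.5%, interval 10.7 to 41.2), an interval that overlapped those of every other list except the ribosomal protein genes. The lists share genes, and Klf4, Tcf7 and Tcf7l2 were also counted in the immediate early or Wnt lists. Cebpb was counted only through its flank, by a domain overlapping Tmem189. Klf4, a zinc-finger factor, had a 4881 bp domain over its start site, covered over 4189 bp at day 0, 3807 bp at day 9 and 4712 bp at day 28. Prrx2, a homeobox gene of limb and craniofacial mesenchyme, had domains of 4695, 3135 and 3065 bp, the widest covered over 4633 bp at day 0, 1866 bp at day 9 and 2988 bp at day 28. Tcf7, a transcriptional partner of beta-catenin, had a 3801 bp intronic domain with no day 0 peak and 3801 and 3634 bp covered at days 9 and 28. Nfatc1, a calcium-dependent factor, had one of 3702 bp. Runx2 itself had a 3431 bp domain over a start site inside the gene (chr17:44870480-44873910), and its covered length was 1909 bp at day 0, 2775 bp at day 9 and 3431 bp at day 28. Sp7, which encodes osterix, fell below the limit with a widest region of 2710 bp that had no day 0 peak.

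Bone matrix and mineralization genes with a wide domain numbered 5 of 40 (12.5%, interval 4.19 to 26.8). Besides Col1a1 they were Col5a1, a fibrillar collagen gene with domains of 4533 and 3087 bp, Timp2, which encodes an inhibitor of matrix metalloproteinases, with 4248 bp upstream and 3005 bp in an intron, Adamts4, which encodes an aggrecan-cleaving protease, and Phospho1, a phosphatase of matrix vesicles. The Adamts4 domain (3540 bp, over the start site) was covered over 818 bp at day 0, 3301 bp at day 9 and 2913 bp at day 28. That of Phospho1, named although it is outside the 4 widest, lay within its flank and over the start sites of Abi3 and Gngt2, with 853 bp at day 0 and 2990 bp at day 9. The late osteoblast genes Bglap2 and Ibsp had no wide domain, and their widest regions were 1997 and 684 bp, although 62.2% of the words of the first occur elsewhere in the genome.

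Wnt pathway genes reached 7 of 40 (17.5%, interval 7.34 to 32.8). The widest lay at Wisp2, which encodes a secreted matricellular protein (5805 bp, with 5487 bp covered at day 0, 2371 bp at day 9 and 3114 bp at day 28). The receptor genes Fzd7 and Fzd5 had domains of 4238 and 4228 bp and the ligand gene Wnt10b one of 4156 bp. Fzd5 was covered over 1274 bp at day 0 and over 4125 and 4090 bp at days 9 and 28, the reverse order of Wisp2. Of the TGF-beta and BMP pathway, 2 of 38 genes were counted (5.26%, interval 0.64 to 17.7). They were Tgif1, a repressor of Smad signalling, with a domain at its start site, and Tgfb1, the ligand, whose domain was nearest to the start site of Ccdc97.

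Immediate early genes numbered 6 of 32 (18.8%, interval 7.21 to 36.4), led by Klf4, Srf, Zfp36l2 and Dusp1, which encode 2 transcription factors, an mRNA-decay factor and a phosphatase of MAP kinases. The Dusp1 domain of 3840 bp was fully covered at day 0, over 2307 bp at day 9 and over 2765 bp at day 28. Actin cytoskeleton and focal adhesion genes reached 8 of 40 (20%, interval 9.05 to 35.6), with Cnn2, Tagln2, Zyx and Pfn1 the widest. Zyx, which encodes the focal-adhesion protein zyxin, was covered over 4314 bp at day 0 but 1794 and 1879 bp later, whereas Tagln2, an actin-binding protein gene, was covered over 3100 bp at day 0 and over 3929 and 4353 bp later.

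Chromatin and Runx co-factor genes numbered 5 of 36 (13.9%, interval 4.67 to 29.5). They were Brd2, which encodes a reader of acetylated histones (5407 bp, covered over 5407, 5231 and 5348 bp at the 3 days), the deacetylase genes Hdac5 and Hdac7, the remodeller gene Smarca2 and the demethylase gene Kdm6b. Cell cycle genes numbered 4 of 35 (11.4%, interval 3.20 to 26.7), namely Cdkn1a, Ccnd3, Cdk6 and E2f1. Translation and protein folding genes numbered 2 of 38, and 1 of these, Eef1g, was counted through a domain at the start site of its neighbour Ahnak. None of 41 cytosolic ribosomal protein genes (interval 0 to 8.6) and none of 23 Yap, Taz and Tead genes and targets (interval 0 to 14.8) had a wide domain. Every gene of both lists had a merged region, as did every osteoblast transcription factor, immediate early, actin, translation and chromatin gene counted. Of the genes of other lineages, 1 of 35 was counted (2.86%, interval 0.07 to 14.9), the sperm protamine gene Prm1, through a domain over the start site of its neighbour Socs1.

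**Figure D4:**
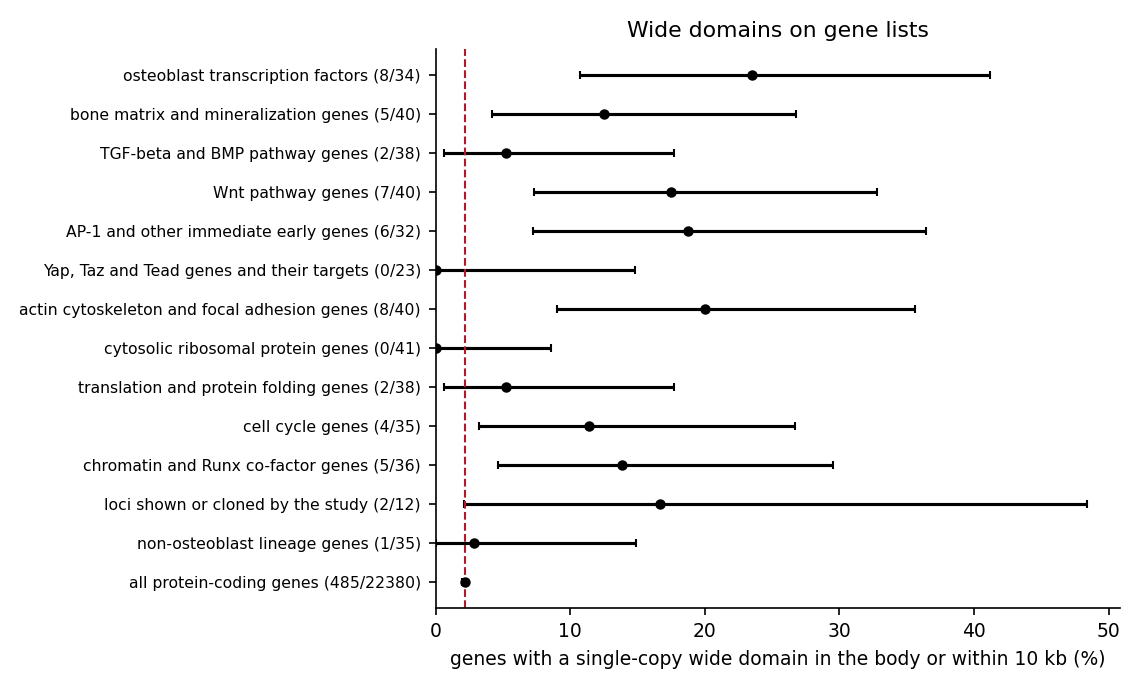
Share of the annotated genes of each list that had a single-copy wide domain in the body or within 10 kb, in percent with 95% intervals; the dashed line is the share over all protein-coding genes, 2.17%, and the counts stand beside each list. Ribosomal protein genes and Yap, Taz and Tead genes sit at 0, and osteoblast transcription factors have the highest share.

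Some wide domains lay close to others, although most did not. Of 390 single-copy domains, 141 (36.2%, interval 31.4 to 41.1) had another within 100 kb, and 7 groups held 4 or more, with 34 members in all. No such share was computed for other regions, and the density of domains differed among chromosomes. The largest held 8 domains over 224 kb of chromosome 2 around Prrx2 and Ptges (chr2:30562337-30785918), and 1 of those, at 3135 bp in an intron of Prrx2, had no day 9 peak. Groups of 5 lay on chromosome 2 from Dnm1 to Fam102a and on chromosome 8. Zfp36l2, Irf2bp2, Col1a1 and Cdc42ep1 each lay in a group of 4. At Irf2bp2, which encodes a transcriptional co-repressor, the widest promoter-centred domain measured 6365 bp and was covered over 6183 bp at day 0, 4725 bp at day 9 and 5149 bp at day 28.

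Only 27 single-copy domains lacked a peak at some stage. Of these, 14 were called at days 9 and 28, 6 at day 0 only, 4 at day 9 only, 2 at days 0 and 28 and 1 at days 0 and 9. The widest of those called at days 9 and 28 was 6156 bp, 28171 bp upstream of P4ha1, a collagen prolyl hydroxylase gene, with 6005 bp covered at day 9 and 1161 bp at day 28. Fgf7, a growth factor gene, carried the wider of the 2 called at days 0 and 28, with 3912 bp covered at day 0 and 813 bp at day 28. A pair of domains near Tomm20 on chromosome 8 were the widest of the day 0 only group (4006 bp, highest score 113.2) and of the group called at days 0 and 9 (4296 bp).

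The repeated domains were dominated by tandem DNA. In 50 of 91 the sequence matched itself at 50% or more of its positions when shifted by 5 to 83 bases, where single-copy domains had a median best match of 30.9%. None of these 50 had a day 0 peak, 43 were called at day 9 only and 7 at days 9 and 28. They were not all built of the Runx core. Matches to TGTGGT were absent from 16 and occurred at 5 or more per kb in 15. Over all 91 repeated domains the density was 3.70 per kb, and 85.4% of the matches lay in 17 domains. How the mapping treated reads that fit several places is not given in the sources used here, and its part in these calls was not tested.

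A 21-base repeat made up 8 day 9 domains of 3418 to 12823 bp. They lay close to the proximal ends of chromosomes 3, 4, 16 and 17 and at one place on chromosome 7, and held 10.2 to 16.0 TGTGGT per kb, as in the stretch from chromosome 17 shown above. Their 32-base words were mostly found once in the assembly (5.84% to 36.0% were found more than once). The densest of all wide domains was the 25-base repeat in an intron of Rsph3b, with 247 matches in 6876 bp (35.9 per kb), all of it in 1 peak at day 9 and 5587 bp of it in peaks at day 28. By contrast, the 16182 bp day 9 peak on chromosome X, made of a 19-base unit, held no TGTGGT.

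The widest of all wide domains belonged to an array of longer units on chromosome 6 between Ezh2 and Pdia4. It comprised 9 domains from chr6:47600127-47723432 with a repeat unit of about 4314 bp, taken as the median best shift of 6 of them. All 9 had peaks at days 9 and 28 and 1 had a peak at day 0. Their summed coverage was 2.68 kb at day 0, 45.6 kb at day 9 and 68.4 kb at day 28. In RefSeq, on assembly GRCm38, the rRNA gene Rn4.5s follows Ezh2. The array of 5S rRNA genes on chromosome 8 between Gas8 and Rhou made up 13 further domains (chr8:126063949-126147047), with a GC content of 62.9% to 63.6%. Their median best shift was 1703 bp (range 1679 to 3398 bp). Day 0 peaks were present in 11 of these 13, and the summed coverage was 15.5 kb at day 0, 72.1 kb at day 9 and 57.8 kb at day 28.

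The wide domains were unevenly placed among chromosomes. Chromosomes 2, 6, 8, 11, 17 and 19, grouped after their values were seen, held 259 of 390 single-copy domains (66.4%) but 37.4% of all merged regions. Chromosomes 3, 7, 9, 12, 13, 14, 18 and X, chosen in the same way, held 28 (7.18%) and 30.1% of regions. Chromosome 19 had 1.71 single-copy domains per 100 regions (interval 1.22 to 2.33), whereas chromosome 13 had 0 in 2600 regions (interval 0 to 0.14) and X had 0 in 967.

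On the same chromosomes the regions under 3000 bp were wider too. Those occupied at all 3 days had a median width of 1452 bp on chromosome 19, 1396 bp on 17 and 1376 bp on 6, against 968 bp on 13 and 894 bp on X. Across 20 chromosomes this median and the number of wide domains per 100 regions gave a Spearman's rho of 0.97 (Pearson's r 0.95), and 0.92 (0.93) when the median was taken over start-site regions alone. Both measures summarise the same distribution of region widths on each chromosome, below and above 3000 bp, and come from the same pooled libraries, so a close relation is largely built in and is given as a description. The spread was largest at day 0, where the covered median ran from 735 bp on X to 1353 bp on chromosome 19. At day 9 it ran from 598 bp on X to 992 bp on 17, and at day 28 from 794 bp on X to 1122 bp on 17. What sets the width of ordinary regions on a chromosome, and its part in which loci reached 3000 bp, was not tested.

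**Figure D5:**
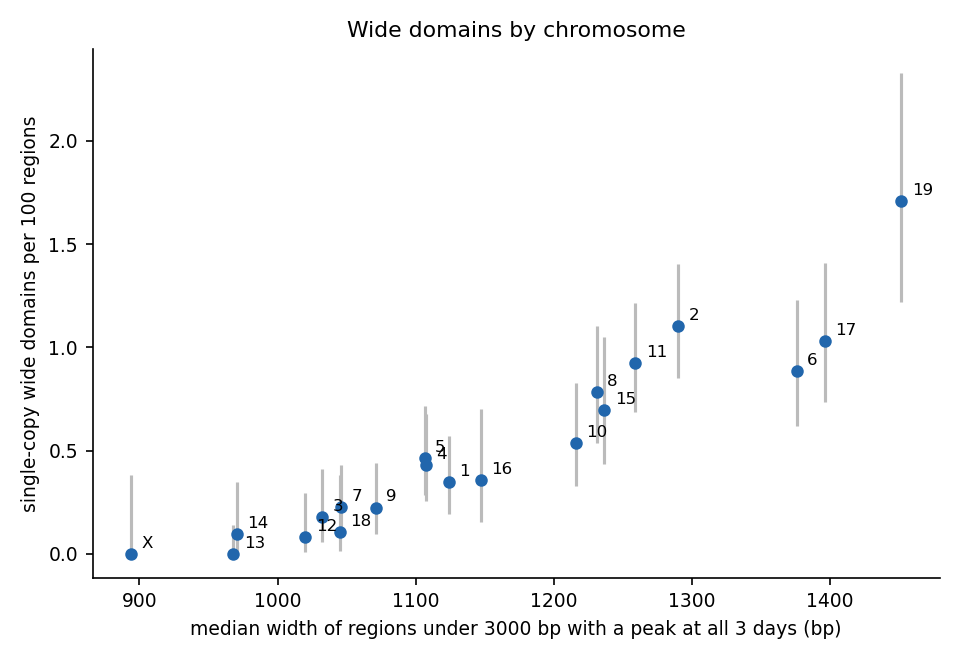
Single-copy wide domains per 100 merged regions (y axis, points with 95% intervals) against the median width in bp of regions under 3000 bp with a peak at all 3 days (x axis), 1 point per chromosome. Chromosome 19 lies highest at 1.71 domains per 100 regions, and 13 and X lie at 0 with the narrowest ordinary regions.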

How the data were processed

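Runx2 ChIP-Seq reads of 36 bases from MC3T3-E1 cells were base-called with CASAVA (1.6), mapped to mm9 with Bowtie (0.12.8), pooled over 2 replicate libraries per stage and called with MACS (1.4.1) against pooled input DNA, as the study and the submitters' processing notes state. The authors deposited 1 list per stage of peak coordinates and a score, and the deposited score is the p-value of the peak caller, written as its negative log10 multiplied by 10, so that the retained p of 1e-10 is a score of 100. Positions are counted from 1.

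Lists were merged here at 1 bp overlap. Start sites, exons and locations came from protein-coding transcripts of GENCODE M1 on NCBIM37, with promoters reaching 1000 bp before and 150 bp past the start. Motifs were counted on both strands. Repeated words of 32 bases were counted over the genome and of 12 bases within a domain, and self-matches were taken at shifts of 2 to 5000 bases. Named loci were the 20 widest members, the widest of each stage pattern and location, up to 4 genes per list, the widest peak of each list, the members at the threshold and the genes with most members. Members and lists were chosen with earlier results of these data known. Alternatives covered the p-value, joining distance, lists, chromosomes and width limit. Programs (Python 3.11.15, NumPy 2.4.6, SciPy 1.17.1, pandas 2.3.3, Numba 0.67.0, Matplotlib 3.10.9) were tested on simulated data. Input libraries, read tracks and expression values of the study were not analysed here.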

Additional observations from a re-analysis of the deposited data

How the results depend on the processing

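Of the 6 quantities followed here for all 481 wide domains under the alternatives, 21 values stayed within the 95% interval or 1.5 times the main value and 31 moved. The number of wide domains was 1185 when peaks up to 500 bp apart were joined, 278 without the day 0 list, 142 at 4000 bp and 1066 at 2500 bp. The share with a peak at all 3 days was 72.9% at p of 1e-20 or lower, 71.8% at 4000 bp and 83.3% at 2500 bp. The share at a start site was 52.4% without day 9, 40.8% without day 28 and 38.7% by the centre. The share holding a single peak of 3000 bp or more was 78.0% at the stricter p, 27.8% after joining, 79.9% without day 0 and 80.1% without day 28. TGTGGT per kb was 1.59 at the stricter p, 1.25 after joining, 1.98, 0.92 and 1.81 without days 0, 9 and 28 in turn, 2.27 at 4000 bp, 1.33 at 2500 bp and 1.79 for TGYGGT, against 1.52. The share widest at day 0 was 35.4% after joining, 56.5% without day 9, 57.5% without day 28 and 49.5% at 2500 bp, against 42.8%. Leaving out the repeated domains, an alternative chosen after seeing the data, gave 93.1% at all 3 days, 54.6% at a start site, 67.7% with a single wide peak, 0.81 TGTGGT per kb and 52.6% widest at day 0. In 4 cases an alternative gave no value, since the share at all 3 days needs all lists and the share widest at day 0 needs that list. The cause of these shifts was not tested.

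No paired analysis was possible because the replicate libraries were pooled into 1 list per stage. Reads and single replicates were not analysed here, so no alternative equalised the unequal depth of the stages, no biological spread stands beside a width, and a long peak is not distinguished from close ones joined by the peak caller.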
